A study of Mus musculus with 6 samples.

Results

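Collagen genes were described in RNA of mouse neural cells that carried either green fluorescent protein (GFP) or a disease variant of neuroserpin. They were taken as every row of the count table whose gene symbol is Col, a number, a and a number, which gave 44 of 39179 genes, and 28 of the 44 had 30 or more counts summed over the 6 libraries. Both groups were neural progenitors, cells that divide and give rise to neurons and glia, prepared from the cerebral cortex of CD1 mouse embryos (E13.5), made to express a gene stably, and then differentiated in T25 flasks. One group of 3 libraries expressed GFP, and the other group of 3 expressed G392E neuroserpin (G392E-NS), a variant of a neuronal protease inhibitor that polymerises in the endoplasmic reticulum and causes the dementia FENIB. The promoter that drives either construct is not given in the sources used here, cells with wild-type neuroserpin were not analysed here, and both groups share the strain, the tissue of origin and the differentiation. The groups differed in Xist, an RNA of female cells, as given below. Library totals ran from 15507487 to 24835835 counts. Nothing in the labels says that the replicates were separate cultures, so the spread behind the p-values is that among these 6 samples and may be only technical.

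Collagens are the main structural proteins of extracellular matrix, built from alpha chains that wind around each other into a rope-like helix. Fibrillar collagens pack into banded fibres, type IV collagens form the sheet-like network of basement membranes, FACIT collagens (fibril-associated collagens with interrupted helices) sit on the surface of fibres, and transmembrane collagens are anchored in the cell membrane. In brain most fibrillar collagen belongs to meninges and large vessels, while basement membranes surround vessels and cover the pial surface, where the end-feet of radial glia and astrocytes attach.

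Of the 44 genes, 31 had a count in each of the 6 libraries, and only Col13a1, a transmembrane collagen, had none in any, which allows at most 3 counts of the total, or 0.0242 CPM (the count relative to the library total). That limit covers counting error only. By type, 7 of 11 fibrillar, 6 of 8 basement membrane, 8 of 9 FACIT, 1 of 4 transmembrane and 6 of 12 other collagen genes reached 30 counts. The basement membrane type here holds the 6 type IV chains and the multiplexins Col15a1 and Col18a1. Next to the threshold, Col6a4 with 34 counts and Col24a1 with 35 lay just inside, and Col2a1 and Col25a1 with 25 each lay just outside.

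The collagens that make up most fibres of connective tissue were almost missing. Col1a1 and Col1a2, the chains of type I collagen, had 9 counts and 1 count over all 6 libraries, and Col3a1, the chain of type III, had 1. Type VI collagen, a beaded filament, had 18 counts of Col6a1 and 14 of Col6a2, and both were lower in each GFP library than in any G392E-NS library, on 0 to 5 counts a library. Col6a5 had 7 counts, all in GFP libraries, and the 0 counts with G392E-NS allow a level of up to 0.0465 CPM. The groups did not overlap either for Col2a1, with 7 counts with GFP and 18 with G392E-NS, and Col8a1, with 5 and 2. No contrast was made for the 16 genes under 30 counts, and no share of non-overlapping groups is given for genes with so few counts. Decorin (Dcn) and lumican (Lum), small proteoglycans that bind fibrillar collagen in connective tissue, had no count in any library.

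**Figure D1:**
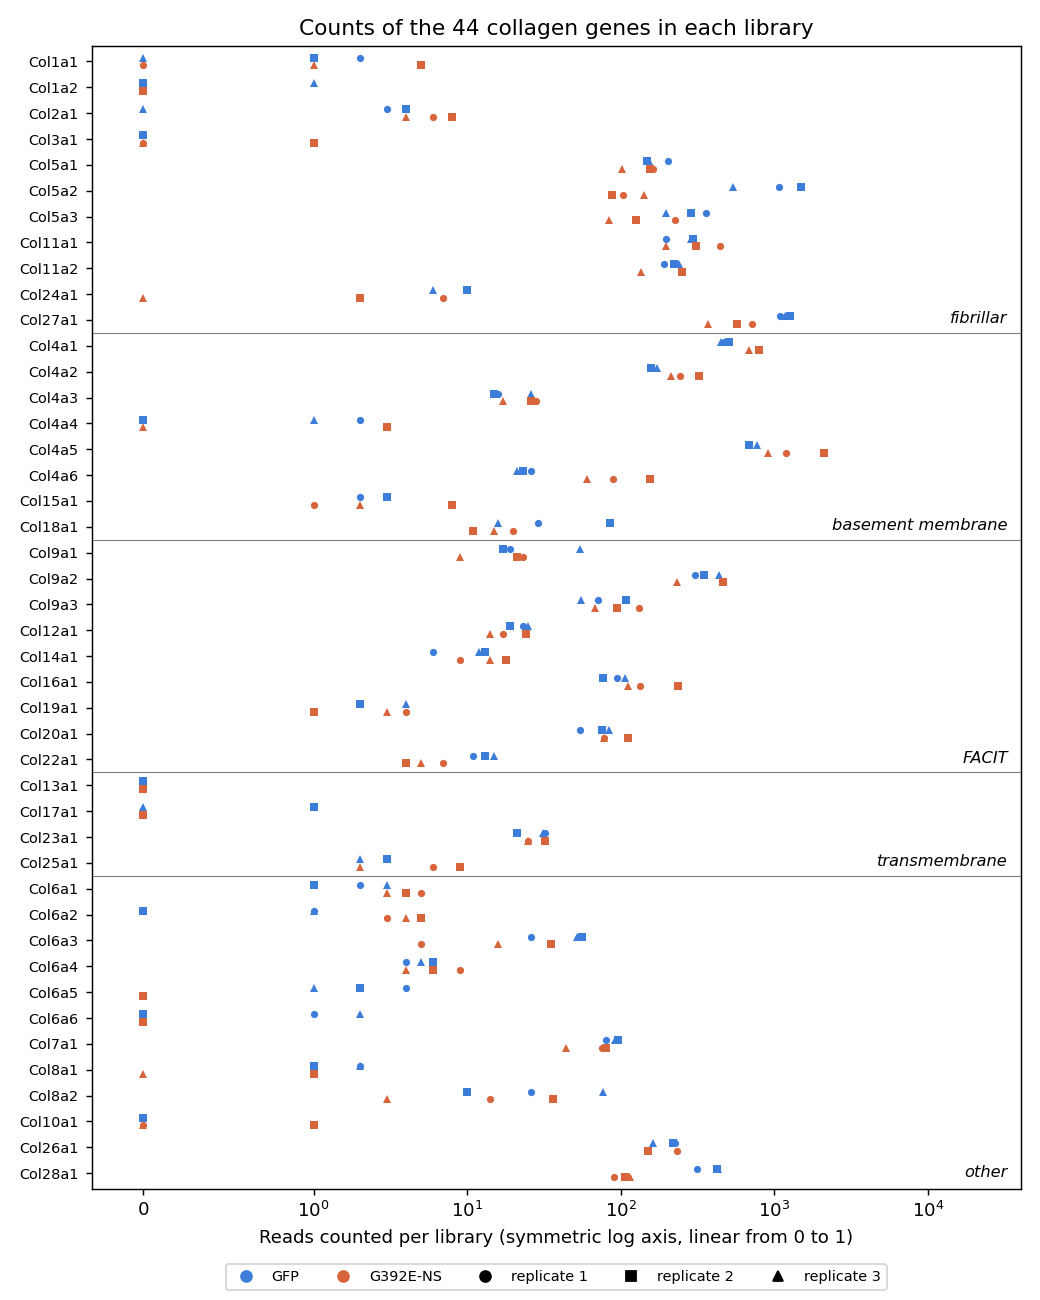
Reads counted in each library (x axis, symmetric log scale) for each of the 44 collagen genes (y axis, grouped by type), with GFP libraries in blue, G392E-NS libraries in orange and replicates by marker shape. Col1a1, Col1a2 and Col3a1 lie at 0 to 5 counts, while Col5a2, Col27a1 and Col4a5 reach 1498, 1268 and 2099 counts.

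Levels were compared between genes only per length, as CPM per kilobase of annotated exon, with CPM scaled by TMM factors. Over all 6 libraries the highest was Col4a5, a type IV chain, at 5.31 ± 0.516 CPM per kilobase with GFP and 9.81 ± 3.07 with G392E-NS (mean ± SD, n = 3 each). Col9a2, a FACIT chain of type IX collagen, followed at 5.76 ± 0.214 and 5.82 ± 0.813. After these came Col4a1, Col27a1, Col5a2 and Col28a1, and Col4a5 with Col9a2 in GFP libraries did not differ beyond their spread. The order changed with the group: Col5a2 stood at 5.56 ± 2.82 CPM per kilobase with GFP and 0.601 ± 0.316 with G392E-NS, and Col28a1 at 3.93 ± 0.363 and 1.07 ± 0.402.

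Between the groups, 2 collagen genes rose and 3 fell in G392E-NS libraries. Both that rose, Col4a5 and Col4a6, encode type IV chains of basement membrane and lie side by side on the X chromosome. Those that fell were the fibrillar Col5a2 and Col27a1, and Col28a1, a collagen with von Willebrand factor domains that belongs to none of the types compared. These calls are from edgeR's quasi-likelihood test over 13775 genes, at an adjusted p (Benjamini-Hochberg) under 0.05, in which 26 of the 28 collagen genes were tested. Over all genes tested 6.15% were called, 4.79% higher and 1.36% lower, against 5 of the 26 collagen genes. By DESeq2, which called 7.87% of all genes higher and 2.66% lower, 4 collagen genes were higher and 4 lower, with Col4a1, Col4a2 and Col5a3 added. By limma-voom, which called 3.79% and 1.22%, 1 was higher and 3 were lower. EdgeR with no low-count filter, which called 5.2% and 1.61% of 23188 genes, gave 4 and 4. Col22a1 met the filter on low counts in its GFP libraries alone, where it is high, and Col18a1, Col6a3 and Col8a2 met it in 3 GFP and 2 G392E-NS libraries. Col24a1 and Col6a4 missed that filter and were given a contrast by a fit of the 14884 genes with 30 or more counts, which called 5.94% of genes and neither of these (adjusted p = 0.241 and 0.770, edgeR).

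**Figure D2:**
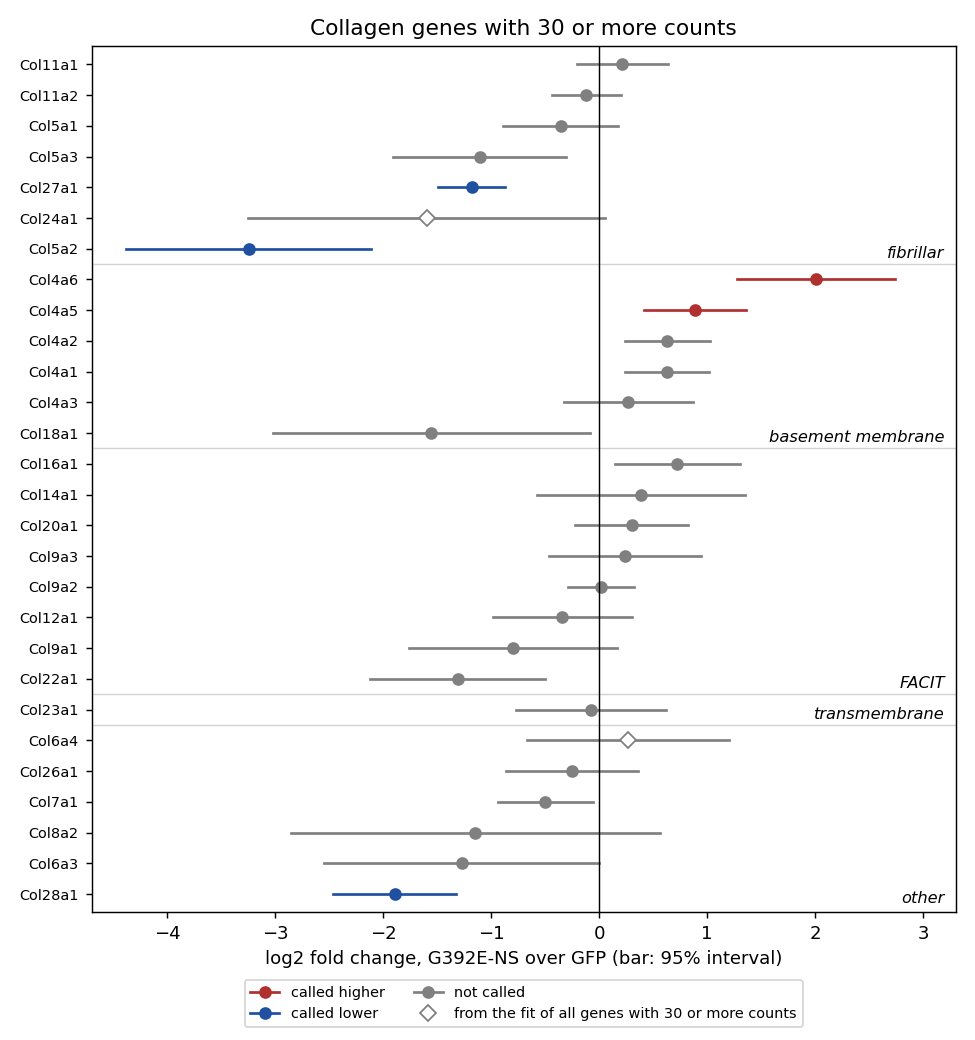
Log2 fold change of G392E-NS over GFP (x axis) with its 95% interval for the 28 collagen genes with 30 or more counts, grouped by type (y axis). Red marks the 2 genes called higher, blue the 3 called lower, grey those not called, and open diamonds the 2 genes that come from the fit of all genes with 30 or more counts.

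The sequences just before the start sites of the called genes are shown, since these are the collagen genes called between the groups. RefSeq (GRCm38.p6) held an entry for 4 of the 5 called genes, all but Col5a2. Each stretch runs 5′ to 3′ on the gene's strand and ends at the start site or, for Col4a5, 34 bases before it where an annotated exon begins. Capitals mark a GC box (GGGCGG or, on the other strand, CCGCCC) or a CCAAT box (CCAAT or ATTGG).
Col4a5, chrX:141475169-141475384, plus strand: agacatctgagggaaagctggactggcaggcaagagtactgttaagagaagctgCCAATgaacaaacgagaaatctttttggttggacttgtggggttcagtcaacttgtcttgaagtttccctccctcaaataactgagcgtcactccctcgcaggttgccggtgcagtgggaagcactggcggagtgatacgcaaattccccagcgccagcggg
Col4a6, chrX:141474077-141474326, minus strand: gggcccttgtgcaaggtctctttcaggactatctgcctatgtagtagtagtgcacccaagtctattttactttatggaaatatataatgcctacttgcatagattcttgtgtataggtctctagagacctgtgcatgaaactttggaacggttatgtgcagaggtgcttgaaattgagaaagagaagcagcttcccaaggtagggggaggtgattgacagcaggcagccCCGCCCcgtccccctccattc
Col27a1, chr4:63215162-63215411, plus strand: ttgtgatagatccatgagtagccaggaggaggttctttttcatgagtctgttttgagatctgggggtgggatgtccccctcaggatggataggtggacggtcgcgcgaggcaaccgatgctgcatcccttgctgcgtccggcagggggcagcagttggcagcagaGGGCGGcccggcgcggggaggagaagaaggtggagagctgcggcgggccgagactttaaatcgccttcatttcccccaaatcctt
Col28a1, chr6:8192618-8192867, minus strand: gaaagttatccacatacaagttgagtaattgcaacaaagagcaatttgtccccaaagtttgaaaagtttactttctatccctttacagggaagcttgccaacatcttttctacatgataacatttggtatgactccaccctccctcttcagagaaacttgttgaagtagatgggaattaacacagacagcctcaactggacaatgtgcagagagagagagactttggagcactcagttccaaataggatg
Col4a5 held 1 CCAAT box, which begins 196 bases before its start, and Col4a6 held 1 GC box, which begins 21 bases before its start. Col27a1 held 1 GC box, 85 bases before its RefSeq start, a start that lies inside the longer gene model of GENCODE. No GC, CCAAT or TATA box (TATAAA, either strand) was in the Col28a1 stretch. The motifs do not overlap one another, and a match is a match of letters, not a shown binding site. Over the 250 bases before all 32851 RefSeq starts, 32.7% held a GC box, 33.8% a CCAAT box and 12.4% a TATA box. Among 23 starts of 21 collagen genes with 30 or more counts, 15 held a GC box, 10 a CCAAT box and 1 a TATA box. The 32851 starts were not limited to genes with 30 or more counts, so this is not a comparison of like sets.

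Of the 5 type IV chains of basement membrane that were tested, 2 were called higher, against 4.79% of all genes tested. For 4 of them the groups did not overlap, all higher, as for 15.6% of all genes tested. The mouse genome holds the type IV chain genes as head-to-head pairs that start next to each other and run apart: Col4a1 with Col4a2 on chromosome 8 (starts 21 bases apart), Col4a3 with Col4a4 on chromosome 1 (72 bases) and Col4a5 with Col4a6 on X (1309 bases). The pairs are of genes on the chromosome, not of chains in the assembled protein. Col4a1 and Col4a2 form the network found in nearly all basement membranes, and Col4a3 to Col4a6 form more restricted ones. All 5 chains tested had a fold change above 0, as did 49.3% of all genes tested. For Col4a3 the groups overlapped, and Col4a4 was not tested.

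Col4a5 (ENSMUSG00000031274, GRCm38 chromosome X, 141475385 to 141689234) had 39.6, 34.3 and 33.0 CPM in GFP replicates 1 to 3 and 49.2, 88.9 and 59.5 CPM in G392E-NS replicates 1 to 3. All 3 G392E-NS libraries lay above the GFP libraries, and G392E-NS replicate 2 stood highest. The log2 fold change was 0.89 (SE 0.21), or 1.85-fold, with an adjusted p of 0.0456 by edgeR's quasi-likelihood test. Its call was near the threshold: it was lost without GFP replicate 1, 2 or 3 (adjusted p = 0.120, 0.149 and 0.115) and without G392E-NS replicate 2 or 3 (0.0523 and 0.0762), each of which leaves fewer samples. Limma-voom gave an adjusted p of 0.0624, and over 15 alternative settings the adjusted p ran from 0.00134 to 0.149.

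Its neighbour Col4a6 (ENSMUSG00000031273, chromosome X, 141165403 to 141474076) was scarcer and had the larger fold change. Levels were 1.5, 1.15 and 0.898 CPM in GFP replicates 1 to 3 and 3.70, 6.53 and 3.91 CPM in G392E-NS replicates 1 to 3. The groups did not overlap. Its log2 fold change was 2.01 (SE 0.32), a 4.02-fold rise with an adjusted p of 0.0118 (edgeR), lost without GFP replicate 2 (0.0546) and kept in the other 14 settings. Per kilobase, Col4a5 exceeded Col4a6 by 31.4, 35.3 and 43.7 times with GFP and by 15.8, 16.2 and 18.1 times with G392E-NS, so the ratio of the pair was lower in each G392E-NS library than in any GFP library.

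Col4a5 and Col4a6 are X-linked, and the groups differed in Xist, the RNA that silences 1 X chromosome in female cells. Xist stood at 1.51 ± 0.0829 CPM with GFP and 1493 ± 345 CPM with G392E-NS, and it may hold reads of its antisense partner Tsix, since the strand setting is not given. The 494 X-linked genes tested had a median log2 fold change of −0.05, with 30 called higher and 15 lower, against a median of 0.00 over 13119 autosomal genes. Ranked by fold change among X-linked genes, Col4a6 was at place 14 and Col4a5 at place 32. The nearest tested neighbours outside the pair, Atg4a and Irs4, had log2 fold changes of 0.08 (adjusted p = 0.808) and −0.12 (0.810). Xist was at 1.41 to 1.55 CPM in every GFP library and 1155 to 1844 CPM in every G392E-NS library. A difference in the sex of the cells therefore cannot be told apart from the construct. That holds for every contrast here, those of autosomal genes included. The part of the sex-linked difference in the rise of this pair was not tested.

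Col4a1 and Col4a2 lay higher by a similar amount and missed the threshold. Col4a1 (ENSMUSG00000031502, chromosome 8, 11198423 to 11312826) had 27.2, 25.4 and 19.3 CPM in GFP replicates 1 to 3 and 32.8, 33.7 and 44.6 CPM in G392E-NS replicates 1 to 3. Col4a2 (ENSMUSG00000031503, chromosome 8, 11312805 to 11449287) had 8.86, 7.92 and 7.35 CPM in GFP and 10.1, 13.6 and 13.7 CPM in G392E-NS replicates 1 to 3. For neither gene did the groups overlap. Both had a log2 fold change of 0.63, with 95% intervals of 0.24 to 1.02 for Col4a1 and 0.24 to 1.03 for Col4a2, and adjusted p of 0.0707 and 0.0714 (edgeR). DESeq2 called both (0.0144 and 0.0219), and so did edgeR with no low-count filter (0.0152 and 0.0434). Col4a1 exceeded Col4a2 per kilobase by 2.63 ± 0.266 times with GFP and 2.65 ± 0.394 times with G392E-NS (mean ± SD, n = 3 each). These genes share 22 exonic bases on opposite strands, so a few reads may be assigned to either.

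**Figure D3:**
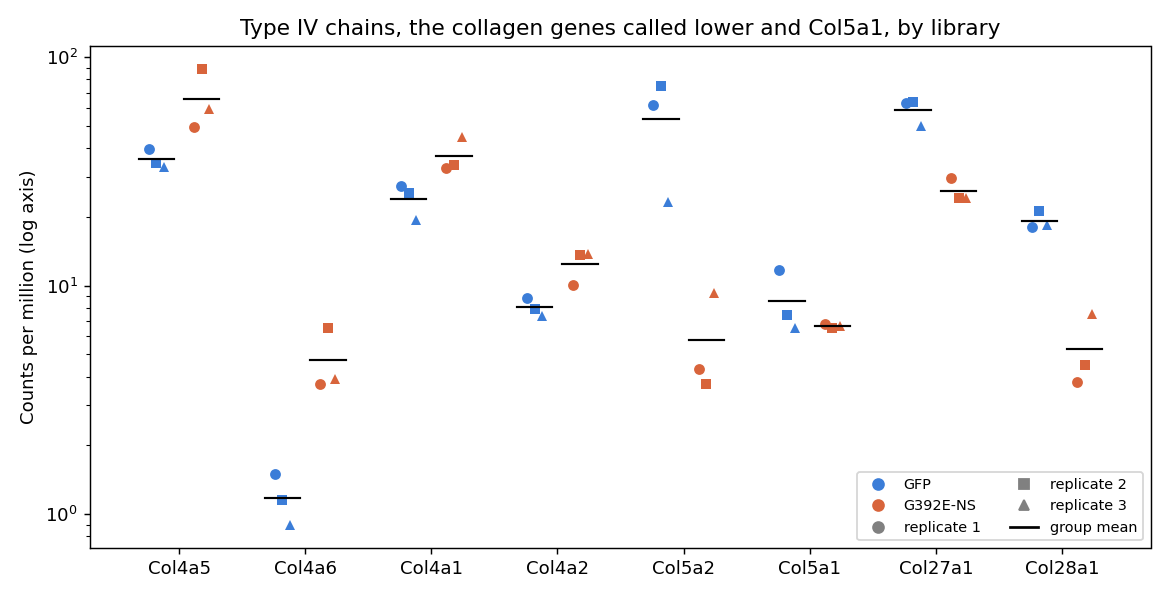
CPM on a log axis for 8 collagen genes in each library, with GFP in blue, G392E-NS in orange, markers for the 3 replicates and a black line at each group mean. The 4 type IV chains lie higher in all 3 G392E-NS libraries, Col5a2, Col27a1 and Col28a1 lie lower, and the groups overlap for Col5a1.

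The remaining basement membrane genes were low. Col4a3 had 0.752 to 1.11 CPM with GFP and 1.10 to 1.16 CPM with G392E-NS, with a log2 fold change of 0.27 (adjusted p = 0.579), and it shares 563 exonic bases with C430014B12Rik on the opposite strand. Col4a4, paired with it on the chromosome, had 9 counts in all, against 128 of Col4a3. Col18a1, whose cleaved end is the angiogenesis inhibitor endostatin, had 1.67, 4.26 and 0.684 CPM with GFP and 0.831, 0.466 and 0.977 CPM with G392E-NS, and its value in GFP replicate 2 stood apart from the other 5. The test made no call, with a fold change of −1.55 on the log2 scale (SE 0.64, adjusted p = 0.202, edgeR), and −0.63 without GFP replicate 2.

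Of 6 fibrillar collagens tested 2 were called lower, Col5a2 and Col27a1, against 1.36% of all genes tested. The groups overlapped for the other 4, of which Col11a1 had a fold change above 0 and 3 below. Type V collagen sets the diameter of fibres by nucleating them, as a molecule of Col5a1, Col5a2 and in some tissues Col5a3 chains. Col5a2 (ENSMUSG00000026042, chromosome 1, 45374321 to 45503282) had 61.9, 75.1 and 23.1 CPM in GFP replicates 1 to 3 and 4.32, 3.73 and 9.25 CPM in G392E-NS replicates 1 to 3. The groups did not overlap, although GFP replicate 3 lay well below the other GFP libraries. The log2 fold change was −3.25 (SE 0.49), a 9.49-fold fall with an adjusted p of 0.0101 (edgeR), and it was called without each library in turn. Its neighbour Col3a1, which is transcribed toward it and ends 24614 bases away, had 1 count in all.

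The other type V chains had smaller fold changes. Col5a1 had 11.7, 7.42 and 6.54 CPM in GFP replicates 1 to 3 and 6.77, 6.53 and 6.65 CPM in G392E-NS replicates 1 to 3, so that GFP replicate 1 alone stood high and the groups overlapped. Its log2 fold change was −0.36 with a 95% interval of −0.89 to 0.17 (adjusted p = 0.400, edgeR). Col5a3 had 20.8, 14.4 and 8.46 CPM with GFP and 9.31, 5.30 and 5.47 CPM with G392E-NS, and only the highest G392E-NS and lowest GFP values overlapped. The log2 fold change of −1.11 (SE 0.35) missed the threshold in edgeR (adjusted p = 0.109) and passed in DESeq2 (0.0155). Within the GFP group each of these 3 genes was lowest in replicate 3. Per kilobase Col5a1 stood at 0.213, 0.112 and 0.319 of Col5a2 with GFP and at 1.77, 1.98 and 0.811 of Col5a2 with G392E-NS, without overlap.

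Col27a1, a fibrillar chain best known from cartilage (ENSMUSG00000045672, chromosome 4, 63214004 to 63334991), had the smallest standard error of the 3 genes called lower. It had 62.8, 63.6 and 50.1 CPM in GFP replicates 1 to 3 and 29.5, 24.1 and 24.1 CPM in G392E-NS replicates 1 to 3. The log2 fold change was −1.18 (SE 0.13), a 2.27-fold fall with an adjusted p of 0.00285 (edgeR), and it was called in all 15 alternative settings. Col11a1 and Col11a2, the chains of type XI collagen that nucleate cartilage fibres, did not pass, with log2 fold changes of 0.22 (95% interval −0.21 to 0.64) and −0.12 (−0.44 to 0.20) and adjusted p of 0.529 and 0.660. For Col11a1 GFP replicates 1 to 3 had 11.3, 14.9 and 12.2 CPM and G392E-NS replicates 1 to 3 had 18.5, 13.2 and 12.8 CPM, and the groups overlapped. Col24a1 was scarce, with 26 counts with GFP and 9 with G392E-NS.

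FACIT and transmembrane collagens held no called gene among 9 tested by edgeR, against 6.15% of all genes tested. With 9 genes, none called does not set these types apart from that share. By edgeR 2 of the 9 had an unadjusted p under 0.05, and the share of all genes at that threshold is not given. Neither DESeq2 nor limma-voom called any. Type IX collagen, which decorates type II fibres in cartilage, supplied the main FACIT transcripts. Col9a2 had 17.4, 17.5 and 18.6 CPM in GFP replicates 1 to 3 and 19.4, 19.6 and 15.1 CPM in G392E-NS replicates 1 to 3, a log2 fold change of 0.02 with a 95% interval of −0.29 to 0.32. Its sign flipped with total-count scaling and with 3 of the left-out libraries. Col9a3 had 4.09, 5.42 and 2.35 CPM with GFP and 5.44, 4.03 and 4.43 CPM with G392E-NS (log2 fold change 0.24, interval −0.47 to 0.94), and it shares 234 exonic bases with Tcfl5 on the opposite strand. For both genes the groups overlapped.

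The 2 FACIT genes nearest to a call had fold changes of opposite sign. Col22a1, a collagen of tissue junctions, had 0.633, 0.652 and 0.641 CPM in GFP replicates 1 to 3 and 0.291, 0.170 and 0.326 CPM in G392E-NS replicates 1 to 3, on 39 and 16 counts (log2 fold change −1.31, SE 0.35, adjusted p = 0.0705). Col16a1 had 5.41, 3.86 and 4.57 CPM with GFP and 5.53, 10 and 7.30 CPM with G392E-NS (log2 fold change 0.72, SE 0.25, adjusted p = 0.141). In both the groups did not overlap, and for Col16a1 the gap was narrow. Col22a1 met the low-count filter in its GFP libraries alone, where it is high. Col9a1, Col12a1, Col14a1 and Col20a1 did not pass, with log2 fold changes of −0.80, −0.34, 0.39 and 0.30 and adjusted p of 0.309 to 0.628.

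Of the transmembrane collagens only Col23a1 could be tested. It had 1.84, 1.05 and 1.32 CPM with GFP and 1.04, 1.36 and 1.63 CPM with G392E-NS, with overlapping groups and a log2 fold change of −0.08 (95% interval −0.77 to 0.62) that turned positive without GFP replicate 1 or G392E-NS replicate 1. Col25a1, which occurs in neurons and binds amyloid, had 8 counts with GFP and 17 with G392E-NS. Col17a1, of epithelial hemidesmosomes, had 2 counts in all.

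Among the other collagens Col28a1 fell (ENSMUSG00000068794, chromosome 6, 7997808 to 8192617). Levels were 18.1, 21.3 and 18.4 CPM in GFP replicates 1 to 3 and 3.78, 4.49 and 7.49 CPM in G392E-NS replicates 1 to 3, far apart, with the highest G392E-NS value in replicate 3. The log2 fold change was −1.89 (SE 0.25), a 3.72-fold fall with an adjusted p of 0.00503 (edgeR), called in all 15 alternative settings. Its nearest tested neighbours, Gm9825 and Mios, had log2 fold changes of −0.10 and −0.07. Col26a1 had 12.9, 10.9 and 6.92 CPM with GFP and 9.60, 6.36 and 9.84 CPM with G392E-NS, and the groups overlapped (log2 fold change −0.26, interval −0.87 to 0.36).

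Col7a1, which forms the anchoring fibrils that tie basement membrane to the tissue below, had 3.93 to 4.81 CPM with GFP and 2.87 to 3.39 CPM with G392E-NS. The groups did not overlap, and its log2 fold change of −0.50 (95% interval −0.93 to −0.06) did not pass (adjusted p = 0.174). Col6a3 and Col8a2 spread widely, with log2 fold changes of −1.27 (SE 0.55, adjusted p = 0.223) and −1.15 (SE 0.74, 0.402). With a library left out these ran from −1.93 (without G392E-NS replicate 2) to −0.79 (without G392E-NS replicate 1) for Col6a3, and from −2.08 (without G392E-NS replicate 2) to −0.28 (without GFP replicate 3) for Col8a2, and neither was called. For Col6a3, a long type VI chain, GFP replicates 1 to 3 had 1.5, 2.81 and 2.22 CPM and G392E-NS replicates 1 to 3 had 0.208, 1.48 and 1.04 CPM, so the groups came close without overlapping. Col8a2 ran from 0.501 to 3.29 CPM within the GFP group alone, and was highest in GFP replicate 3.

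Set side by side, the types differed in their medians. The median log2 fold change was −0.73 over 6 fibrillar genes tested, 0.63 over 6 basement membrane genes and 0.02 over 9 transmembrane or FACIT genes, against 0.00 over all 13775 genes tested. With Col24a1, which reached 30 counts but missed the low-count filter, the fibrillar median over 7 genes was −1.11. With each library left out in turn these medians ran from −0.90 to −0.44, from 0.52 to 0.72 and from −0.04 to 0.15. The last therefore changed sign, and the fibrillar and basement membrane medians did not. No test of the difference between types was made, since the members were chosen with results of these data known. Of the 26 genes tested 11 had groups that did not overlap, 5 higher and 6 lower, against 28.6% of all genes tested (15.6% higher and 12.9% lower). The 5 higher were the 4 chains Col4a1, Col4a2, Col4a5 and Col4a6 and the FACIT gene Col16a1, and the 6 lower were Col5a2, Col27a1, Col28a1, Col22a1, Col7a1 and Col6a3. Of these Col22a1 was tested only because its GFP libraries, where it is high, met the low-count filter.

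Summed per kilobase, fibrillar transcripts held 18.3, 18.6 and 10.8 CPM per kilobase in GFP replicates 1 to 3 and 7.89, 6.46 and 6.74 in G392E-NS replicates 1 to 3. Basement membrane transcripts held 11.4, 10.6 and 8.96 with GFP and 14, 20.9 and 17.7 with G392E-NS. As a share of all collagen per kilobase, fibrillar genes made up 31.1% to 41.6% with GFP and 16% to 23.2% with G392E-NS, and basement membrane genes 23.6% to 25.9% and 41.1% to 51.7%. FACIT transcripts summed to 8.54 to 8.77 CPM per kilobase with GFP and 8.47 to 10.1 with G392E-NS, and these ranges overlapped. The fibrillar sum followed few genes: without Col5a2 and Col27a1 the other 9 held 4.50 to 7.02 with GFP and 3.92 to 5.17 with G392E-NS, which overlap. The sum over all 44 genes overlapped as well, at 34.6 to 44.9 CPM per kilobase with GFP and 34.0 to 40.3 with G392E-NS. In bulk RNA fewer cells of a type and less RNA per cell cannot be told apart.

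**Figure D4:**
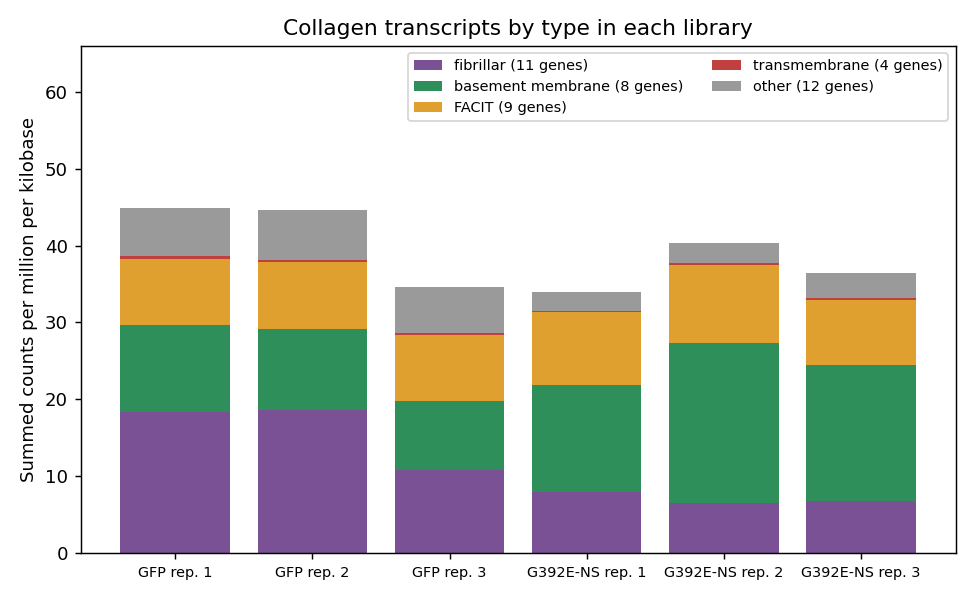
Summed CPM per kilobase of the collagen genes (y axis) in each of the 6 libraries (x axis), stacked by type. Basement membrane genes hold 8.96 to 11.4 with GFP and 14 to 20.9 with G392E-NS, and fibrillar genes 10.8 to 18.6 and 6.46 to 7.89.

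Calls among the genes that make, process and bind collagen stand against 4.79% called higher and 1.36% called lower over all genes tested. Of 19 genes for chain modification, folding and export, 18 were tested, 1 rose and none fell, with a median log2 fold change of 0.06. The 1 was P4ha3, a prolyl hydroxylase subunit that stabilises the helix, which rose 15.5-fold from 0.0575, 0.10 and 0.171 CPM in GFP replicates 1 to 3 to 2.08, 2.50 and 0.912 CPM in G392E-NS replicates 1 to 3 (log2 fold change 3.96, SE 0.54, adjusted p = 0.00608, edgeR). It passed the low-count filter only through the G392E-NS libraries, where it is high, and so had to differ. It remained scarce beside its paralogue P4ha1, at 55.2 ± 2.50 and 52.6 ± 6.72 CPM. Serpinh1, the collagen chaperone HSP47, was at 120.3 ± 29.4 CPM with GFP and 111.2 ± 29.4 CPM with G392E-NS, with an adjusted p of 0.817. Of 14 genes for processing and cross-linking, 9 were tested and none was called by edgeR, DESeq2 or limma-voom, with a median of 0.34. The share of all genes at an unadjusted p under 0.05 is not given, and 1 of the 9 was at that threshold by edgeR. The 1 was Tgm2, a cross-linking transglutaminase (log2 fold change 1.17, SE 0.48, adjusted p = 0.204, edgeR). In the GFP group its replicate 2 alone, at 0.602 CPM, reached the low-count minimum of 0.471 CPM. Tgm2 passed that filter through the G392E-NS libraries (0.499, 1.14 and 0.847 CPM in replicates 1 to 3), where it is high.

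Among 11 collagen receptors 8 were tested, none rose and 1 fell, where 1.36% of all genes fell, with a median of −0.14. Ddr2, a receptor kinase for fibrillar collagen, fell 5.03-fold from 4.09, 4.41 and 2.74 CPM in GFP replicates 1 to 3 to 0.748, 0.848 and 0.586 CPM in G392E-NS replicates 1 to 3 (log2 fold change −2.33, SE 0.29, adjusted p = 0.00398, edgeR). The groups did not overlap. Ddr1 and Adgrg1, receptors abundant in these cells at 533.2 ± 111.5 and 642.9 ± 109.9 CPM in GFP libraries, had log2 fold changes of −0.18 and 0.14 and did not pass (adjusted p = 0.629 and 0.646). Of 13 matrix partners 7 were tested and none was called by edgeR, with a median of −0.23. Limma-voom called none, and DESeq2 called 1 higher and 3 lower, against 7.87% and 2.66% of all genes tested. By edgeR 5 had an unadjusted p under 0.05, a threshold for which the share of all genes is not given. Nearest was Nid1, nidogen, which links type IV collagen to laminin, at 2.16 ± 1.05 CPM with GFP and 8.73 ± 5.29 CPM with G392E-NS (log2 fold change 2.02, SE 0.51, adjusted p = 0.0563).

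Markers of cell types that make much collagen were checked beside these results, as were markers of other neural cells. Calls among them stand against 4.79% called higher and 1.36% called lower over all genes tested. Of 19 markers of fibroblasts, meninges and mural cells, 10 had under 30 counts, 3 (Dcn, Lum and Aldh1a2) had none, and 3 of 8 tested rose. Those were Tbx18, Twist1 and Pdgfra, of which Tbx18 and Twist1 passed the low-count filter only through the G392E-NS libraries, and Twist1 had no count with GFP. Prrx1, on the same list, had 33.4 ± 5.93 CPM with GFP and 14.7 ± 5.94 CPM with G392E-NS, without overlap (log2 fold change −1.17, adjusted p = 0.0537, edgeR). DESeq2 called 3 members of the list higher and 1 lower, against 7.87% and 2.66% of all genes tested. The summed level was 364.9 to 517.7 CPM with GFP and 648.7 to 1131 CPM with G392E-NS, of which Pdgfra, also a marker of oligodendrocyte precursors, held 346.4 ± 77.8 and 750.4 ± 264.4. Of 11 endothelial markers, Cdh5, Cldn5, Erg and Ly6c1 had no count, and 1 of 3 tested fell (Cd93), with sums of 4.83 to 16.6 and 1.69 to 3.52 CPM. Cd93 held 9.79 ± 5.91 CPM of the sum with GFP and 1.08 ± 0.439 CPM with G392E-NS. For Kdr and Esam, the others tested, the groups overlapped, with log2 fold changes of −0.06 and −0.03 (adjusted p = 0.946 and 0.995, edgeR). All 9 markers of microglia and blood cells had under 30 counts, with sums of 0.0855 to 0.403 and 0.0831 to 0.326 CPM. Among 8 astrocyte markers 4 rose (Gjb6, Slc1a2, Aldoc and Aldh1l1), none fell, and 7 had a fold change above 0. For Aqp4 the groups overlapped (log2 fold change −0.14, adjusted p = 0.861, edgeR). The sum of the 8 was 3117 to 4445 CPM with GFP and 7075 to 11352 CPM with G392E-NS. Gjb6 had 0.345, 0.301 and 0.898 CPM in GFP replicates 1 to 3, where replicate 3 alone reached the low-count minimum of 0.471 CPM. It passed that filter through the G392E-NS libraries, where it is high. Nes, a marker of progenitors, fell as 1 of 6, of 7 oligodendrocyte lineage markers Pdgfra rose, and of 8 neuronal markers 7 were tested and none was called by edgeR (2 at an unadjusted p under 0.05, both higher, 1 by DESeq2, 0 by limma-voom). Without GFP replicate 2 the marker calls fell to 2 of the fibroblast, meningeal and mural list, 1 of the astrocyte list and 0 of the other lists, while calls over all genes fell from 847 to 258. In that setting 5 markers of the first list and 7 of the astrocyte list were higher at an unadjusted p under 0.05 by edgeR. The share of all genes at that threshold is not given here, so these counts cannot be set against it. The part of these cell types in the collagen differences was not tested.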

How the data were processed

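RNA-seq of 6 libraries, 3 per group, was analysed from the deposited table of raw counts per Ensembl gene, which the authors did not normalise, as its whole numbers with unequal totals show. GRCm38, DESeq2 1.4.5, HTSeq 0.6.1, TopHat2 2.0.12 and R 3.2.2 appear in the submitters' processing notes without their roles. No source used here gives the annotation release or the strand setting. Columns were matched to samples by title. Symbols, positions and exon lengths came from GENCODE M21 (GRCm38), which matched 37693 of 39179 genes and all 44 collagen genes.

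Genes were filtered with filterByExpr (13775 genes, 99.9% of counts), scaled by TMM and compared with edgeR 4.0.16 (R 4.3.3, quasi-likelihood F test, Benjamini-Hochberg over all genes tested, threshold 0.05). The F statistic gave each standard error, and from it the 95% interval. Counts at an unadjusted p under 0.05 are given without the share of all genes at that threshold. In the reported edgeR fit that share is at least the 6.15% of genes called. The members, types and lists were chosen with earlier results of these data known. Named genes were the called ones, the 2 highest per type per kilobase, their partner chains, and called or nearest genes of other lists. Some genes outside the rule were added once their values were known. The 15 alternatives were DESeq2 1.42.0, limma-voom (limma 3.58.1), 3 other scalings (RLE, upper quartile, total count), 3 other filters, a replicate block and each library left out. Tests were tried on simulated counts. Within groups, counts of library pairs differed by a chi-square of 8.02 to 56.4 per degree of freedom, which leaves no duplicate libraries. Depth was 15507487 to 24835835 counts per library, and Poisson error is largest for the genes with few counts.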

Additional observations from a re-analysis of the deposited data

How the results depend on the processing

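Of 403 log2 fold changes of the 28 collagen genes under alternative settings, 396 kept their direction. The 7 reversals were of genes near 0: Col9a2 had −0.0446 with total-count scaling and −0.0541 to 0.127 with a library left out (below 0 without GFP replicate 1 and without either of G392E-NS replicates 1 and 2), Col9a3 ran from −0.0371 (GFP replicate 3 left out) to 0.537, and Col23a1 from −0.245 to 0.151 (above 0 without replicate 1 of either group). The transmembrane or FACIT median was −0.0446 with total-count scaling, −0.0381 to 0.151 with a library left out and 0.24 with genes filtered at 1 CPM in 3 libraries. Collagen genes called higher, 2 as reported, were 4 by DESeq2, 4 without the low-count filter, 1 by limma-voom and 1 with the replicate block, and 0 to 3 with a library left out. The 0 was without GFP replicate 2, where 4 had an unadjusted p under 0.05 by edgeR. Collagen genes called lower, 3 as reported, were 2 to 4 over all settings, and 3 with each library left out. Over all genes, 660 higher and 187 lower calls became 1084 and 366 by DESeq2, 1205 and 374 without the filter, and 217 and 50 with the replicate block, and the 847 calls became 242 to 1373 with a library left out. Left-out libraries and the block leave fewer degrees of freedom, and the 1373 calls were without G392E-NS replicate 1. The cause of the changes in calls was not tested. The labels tie the replicate numbers to nothing, and same-numbered libraries did not deviate together (correlations of 0.04, −0.44 and −0.28), so the numbers were not treated as pairs. With the replicate block Col5a2 had an adjusted p of 0.0715 and Col4a5 of 0.117, and the calls of Col4a6, Col27a1 and Col28a1 held. P4ha3 and Ddr2 were called in each setting that tested them, under alternatives chosen after seeing the data. P4ha3 passed the reported low-count filter only through the G392E-NS libraries, where it is high, so its calls under that filter give no further support. Depth limits the 16 genes under 30 counts, for which no contrast was made.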
